A study of Canis lupus familiaris with 21 samples.

Results

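Chemokines are small secreted proteins that direct the movement of leukocytes, and each binds 1 or more receptors on the surface of the cells it attracts. The ligands are named CCL, CXCL, CX3CL or XCL after the spacing of their first cysteines, and the receptors are named after the ligand class that they bind. Inflammatory chemokines are induced at sites of damage or infection, whereas homeostatic chemokines such as CCL19, CCL21 and CXCL12 place lymphocytes and dendritic cells in lymphoid organs and skin. Of the 800 probes of the nCounter Canine IO Panel, 46 carried a name of this kind with a number. CXCL13, CXCR5, CCR6 and CX3CR1 were left out of the set, which left 42 genes (28 ligands and 14 receptors) chosen by name alone and by no measured value. Roles are given as known from human and mouse. Probe sequences were not used here, so that cross-reaction between probes of related genes such as CCL3 and CCL4 was not tested.

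The study had measured formalin-fixed, paraffin-embedded (FFPE) tissue of canine cutaneous histiocytoma (CCH), a tumor of Langerhans cells in the skin of dogs that is staged by how far lymphocytes have entered it. Group 2b held lymphocyte-rich areas of stage 2 tumors (n = 6 libraries, 17 dogs aged 0.3 to 6 years by the labels, with the age of 1 dog not given) and group 2a held tumor cell-rich areas of stage 2 (n = 5, 5 dogs aged 0.6 to 3 years). Group 3 held lymphocyte-rich tissue of stage 3 (n = 5, 5 dogs aged 1.5 to 9 years) and group 1 held tumor tissue of stage 1 (n = 5, 5 dogs aged 0.5 to 5 years, with the age of 1 dog not given). All tumors were archived biopsies of privately owned dogs, and areas were chosen by their appearance under the microscope. In group 2b, 2 libraries came from a single dog each, 3 were pools of 4 dogs and 1 was a pool of 3 dogs, and a pool averages over its dogs. Punching of areas into new paraffin blocks is described for stage 2 only. Stage and kind of area differ together between group 3 and group 1 and cannot be told apart there.

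The deposited values are counts normalized by the authors to reference probes, and all values below are such normalized counts. The counts recovered from them summed to between 484696 and 1315188 per library, and the median of all 800 probes was 332 to 362 in group 2b and 324 to 363 in group 3, compared with 175 to 247 in group 2a and 159 to 259 in group 1. DV200, the percentage of RNA fragments over 200 nucleotides, was 72.5 to 76.9 in group 2b, 71.2 to 75.8 in group 3, 70.5 to 76.6 in group 2a and 64.5 to 71.2 in group 1. All 9 T cell markers and all 6 B cell markers of the panel were higher in group 2b than in group 2a. The summed T cell markers were 10080.5 to 18411 in group 2b, against 2001 to 5943 in group 2a, and the summed B cell markers were 3591 to 7719 in group 2b, against 265 to 563 in group 2a. In group 3 against group 1, all 9 T cell markers and 5 of the 6 B cell markers were higher. Group 3 had summed T cell markers of 11009 to 18636, against 277 to 7999 in group 1, and summed B cell markers of 939 to 5450.1, against 205 to 487 in group 1. The summed counts of the 6 measured markers of Langerhans and dendritic cells were 1070 to 1711 in group 2b, against 2108 to 5228 in group 2a, without overlap. In group 3 these sums were 1357 to 1716, against 1586 to 5050 in group 1, with overlap. The mean of log2(normalized count + 1) over the same 6 markers overlapped in both comparisons. It was 6.29 to 7.13 in group 2b, against 6.75 to 7.74 in group 2a. In group 3 it was 6.75 to 7.26, against 6.84 to 8.24 in group 1. Only FLT3 and CD207 of these 6 are given singly here. FLT3 was lower in group 2b against group 2a (log2 fold change -2.36 ± 0.35, adjusted p = 4.48e-05) and in group 3 against group 1 (log2 fold change -2.49 ± 0.37, adjusted p = 7.57e-05). CD207, which encodes the Langerhans cell protein langerin, averaged 16.4 ± 3.43 in group 2b, against 19.4 ± 4.64 in group 2a, and 16.1 ± 5.64 in group 3, against 27.4 ± 8.06 in group 1 (SD), and was called lower in group 3 only (log2 fold change -0.76 ± 0.27, adjusted p = 0.0295).

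Of the 42 genes, 17 were higher in group 2b than in group 2a and none was lower, by limma on log2(normalized count + 1) with Benjamini-Hochberg adjustment over all 800 probes, with genes called where the adjusted p did not exceed 0.05. Over all probes, 38.8% were called in this comparison, 32.2% higher and 6.5% lower, so that the share of chemokine genes called (40.5%) was near that of the panel. Between group 3 and group 1, 19 genes were higher and 1 (CCL24) was lower, where 39.9% of all probes were called, 29.4% higher and 10.5% lower. The median log2 fold change of the 42 genes was 0.62 in group 2b against group 2a (all probes 0.23) and 0.80 in group 3 against group 1 (all probes 0.14). Receptors had a median of 1.47 in group 2b against group 2a, with 8 of 14 higher, and ligands one of 0.50, with 9 of 28 higher. In group 3 against group 1, 8 of 14 receptors and 11 of 28 ligands were higher, with medians of 0.98 and 0.62. The tissue was measured in bulk, so that more cells of a type and more RNA per cell cannot be told apart.

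These 2 comparisons share no library, although they share 1 estimate of the spread. Of the 17 genes higher in group 2b, 16 (94.1%) were also higher in group 3 against group 1, which is 84.2% of the 19 higher there. Over all probes, 213 were called higher in both, 82.6% of 258 and 90.6% of 235. The groups did not overlap, with group 2b above group 2a, for 10 genes (all probes 21.5%) and in the other direction for 0 (all probes 3.88%). In group 3 against group 1 these numbers were 7 (all probes 18.2%) and 0 (all probes 5.25%). CCL7, CCL8 and CCR1 were called higher in group 3 only.

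**Figure D1:**
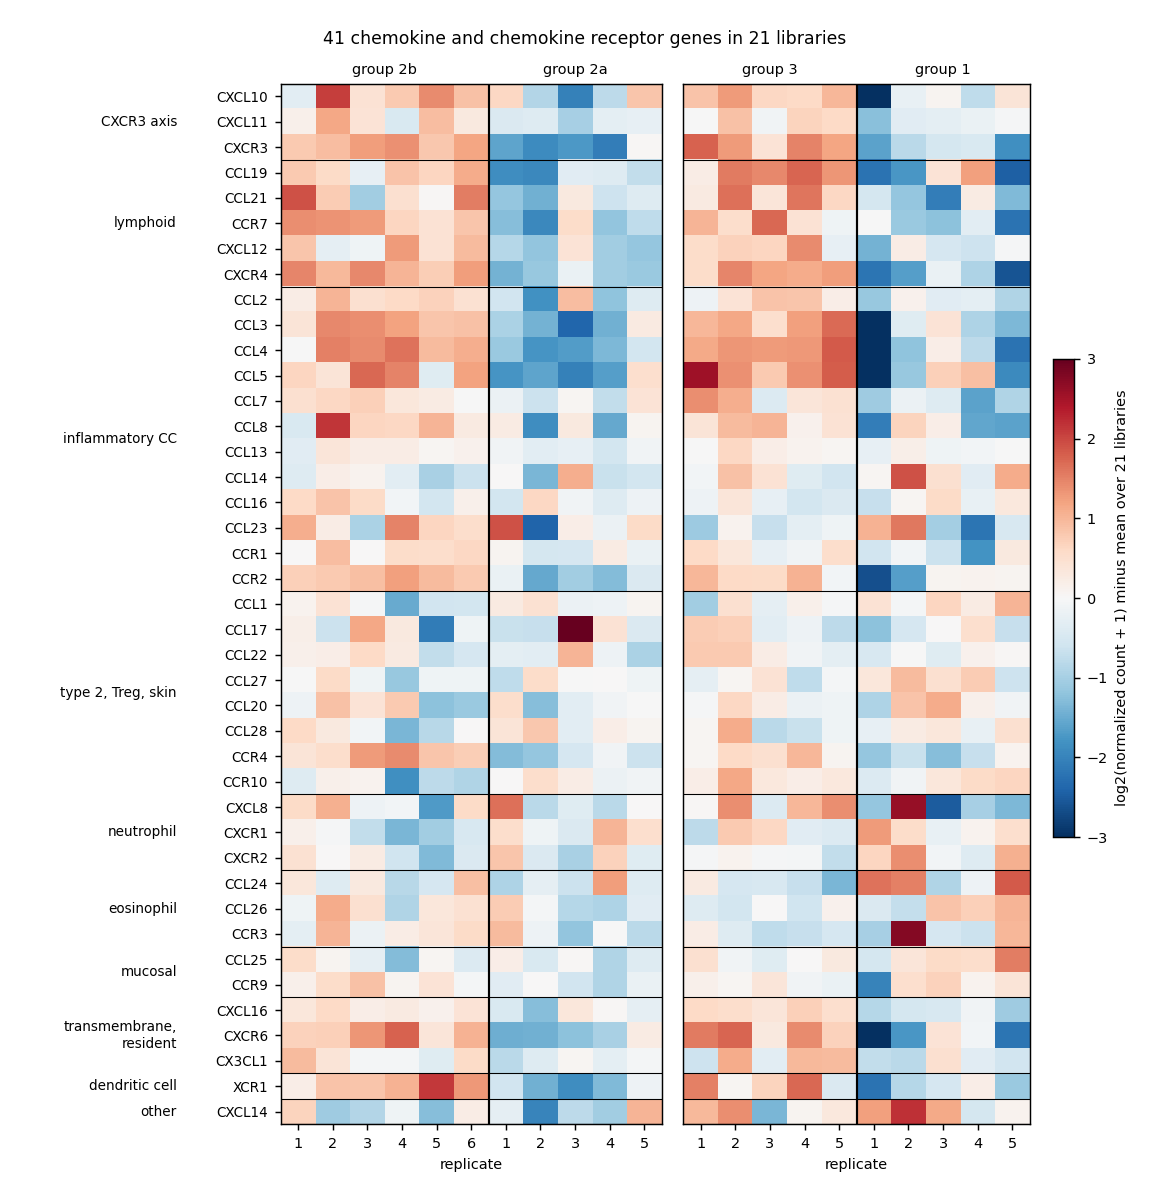
Each square is 1 of 41 genes in 1 library, colored by log2(normalized count + 1) minus the mean of that gene over 21 libraries, with the color scale ending at -3 and 3. Genes are ordered by role, and libraries by group and replicate. The CXCR3, lymphoid and inflammatory CC rows are mostly red in groups 2b and 3, and group 1 replicate 1 was the lowest of 21 libraries for 12 genes.

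**Figure D2:**
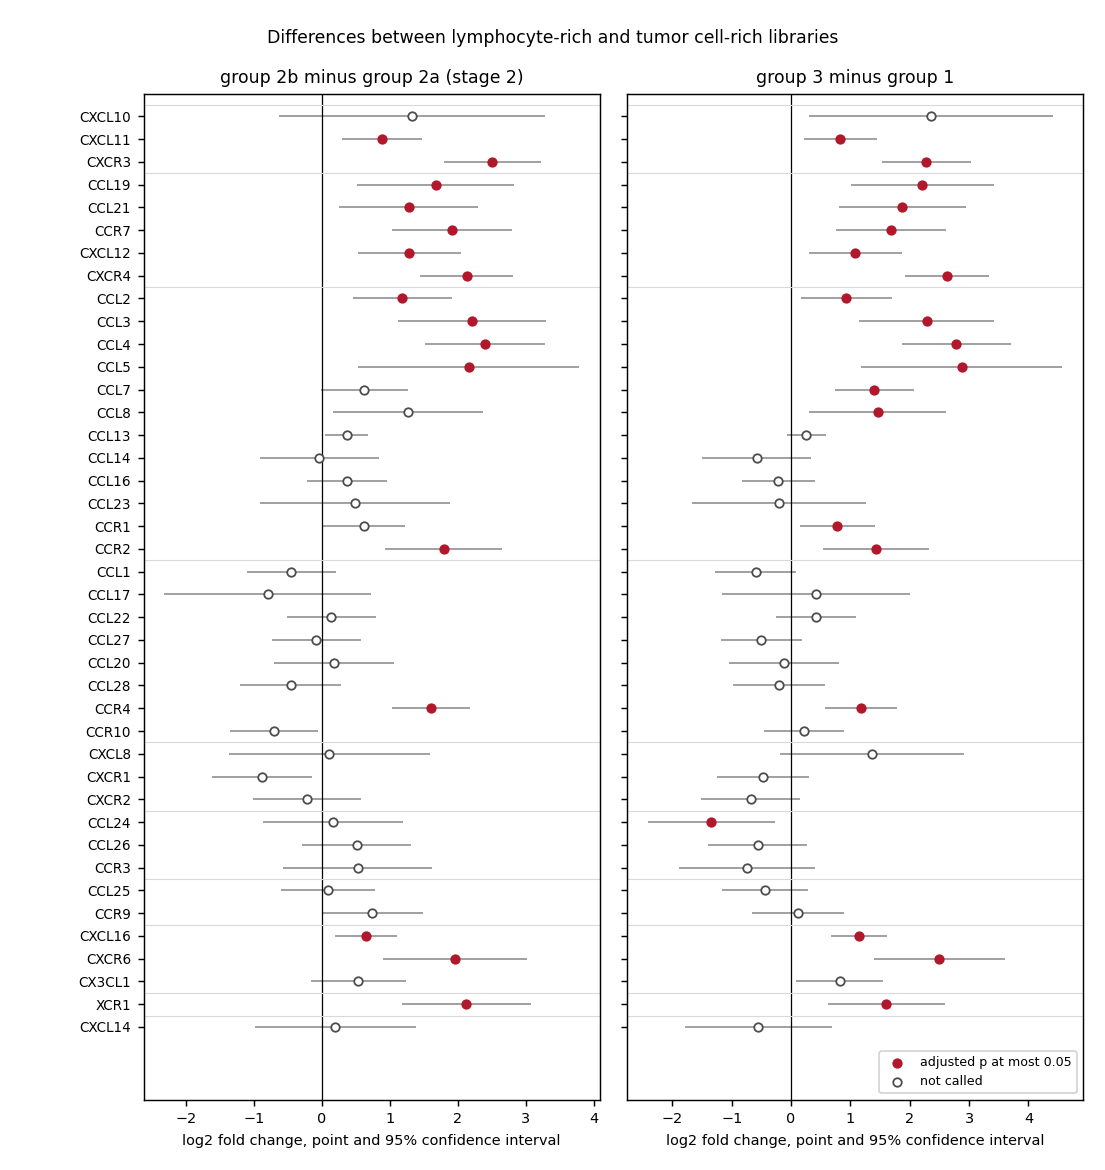
Points are log2 fold changes of 41 genes with 95% confidence intervals, for group 2b minus group 2a (left) and group 3 minus group 1 (right). Filled points mark called genes, 16 on the left and 20 on the right.

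CXCR3 is the receptor of activated T helper 1 and CD8+ T cells, and CXCL10 and CXCL11 are its interferon-induced ligands. CXCR3 had 344 to 522 (median 419.6) in group 2b, against 66.0, 53.6, 59.3, 46.4 and 205 in group 2a. In group 3 it had 679.7, 488, 266, 566 and 455, against 64.5, 114, 138, 145 and 55.0 in group 1. Neither pair of groups overlapped, although group 2a replicate 5 was set apart from the other group 2a libraries. CXCR3 was higher in group 2b by a log2 fold change of 2.51 ± 0.34 (SE, adjusted p = 2.46e-05) and in group 3 by 2.28 ± 0.36 (SE, adjusted p = 9.32e-05). It was the largest fold change of the 42 genes in group 2b against group 2a.

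CXCL11 had 73.3 to 230.2 (median 129.9) in group 2b, against 75.0, 77.1, 50.3, 82.7 and 85.5 in group 2a. Levels in group 3 were 100.5, 189, 94.99, 162 and 153, against 42.3, 79.7, 82.6, 89.0 and 98.5 in group 1. Only the lowest group 2b library lay within the range of group 2a, and the lowest group 3 library lay just below the highest of group 1. This gene was higher in group 2b by a log2 fold change of 0.89 ± 0.28 (SE, adjusted p = 0.0166) and in group 3 by 0.83 ± 0.29 (SE, adjusted p = 0.0301). CXCL10 had the largest ratio of the highest to the lowest of the 21 libraries among the 42 genes, 513-fold, with 128 in the lowest and 65631 in the highest.

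CXCL10 had 12575 to 65631 (median 27984) in group 2b, against 24101, 8479, 3813, 9072 and 27938 in group 2a. Group 3 had 28370.1, 37876, 24188, 23624 and 31378, against 128, 13466, 16465, 9287 and 20499.8 in group 1. Every group 3 library was above every group 1 library, and group 1 replicate 1 lay far below the other group 1 libraries. Neither difference was called, with log2 fold changes of 1.33 ± 0.94 (SE, adjusted p = 0.293) in group 2b and 2.36 ± 0.98 (SE, adjusted p = 0.0635) in group 3. Without that library the log2 fold change of group 2b against group 2a stayed at 1.33, with an SE of 0.45 in place of 0.94 and an adjusted p of 0.0239. The log2 fold change of group 3 against group 1 was 1.00 ± 0.50 without it (adjusted p = 0.131), and was called without group 1 replicate 2, 3 or 5 (adjusted p of 0.0381 to 0.0489).

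CCR7 brings dendritic cells and naive or central memory T cells to the T cell zones of lymph nodes, following CCL19 and CCL21. CCR7 had 253 to 497 (median 395) in group 2b, against 76.3, 48.0, 277, 82.7 and 110.0 in group 2a. Libraries of group 3 had 381, 271, 617, 252 and 171, against 186, 86.5, 78.9, 152 and 39.8 in group 1. Group 2a replicate 3 reached into the range of group 2b, and group 1 replicate 1 was above the lowest group 3 library. CCR7 was higher in group 2b by a log2 fold change of 1.91 ± 0.42 (SE, adjusted p = 0.00142) and in group 3 by 1.68 ± 0.44 (SE, adjusted p = 0.00513).

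CCL19 had 203 to 524 (median 396) in group 2b, against 66.0, 62.6, 189, 183 and 145 in group 2a. The values in group 3 were 280.3, 708, 653, 814 and 606, against 50.8, 71.2, 321, 563 and 43.6 in group 1. The stage 2 groups did not overlap, whereas group 1 replicates 3 and 4 were above the lowest group 3 library. This gene was higher in group 2b by a log2 fold change of 1.67 ± 0.55 (SE, adjusted p = 0.0219) and in group 3 by 2.21 ± 0.58 (SE, adjusted p = 0.00489). CCL21 had 57.2 to 449 (median 186) in group 2b, against 53.0, 43.6, 148, 77.0 and 90.9 in group 2a, with overlapping ranges. In group 3 it had 145, 378, 154, 366 and 184, against 82.5, 52.6, 27.5, 142 and 47.4 in group 1, where no library overlapped. CCL21 was higher in group 2b by a log2 fold change of 1.27 ± 0.49 (SE, adjusted p = 0.0454) and in group 3 by 1.87 ± 0.51 (SE, adjusted p = 0.00643).

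CXCR4 is carried by most leukocytes and binds CXCL12, which is made by stromal cells. CXCR4 had 764 to 1262 (median 1015) in group 2b, against 171, 209, 399, 222 and 213 in group 2a. Levels in group 3 were 678, 1271, 1045, 1001 and 1093, against 100.5, 144, 398, 240.5 and 75.8 in group 1. Neither pair of groups overlapped. CXCR4 was higher in group 2b by a log2 fold change of 2.13 ± 0.33 (SE, adjusted p = 6.19e-05) and in group 3 by 2.63 ± 0.34 (SE, adjusted p = 2.50e-05). CXCL12 had 589 to 1719.6 (median 1109.7) in group 2b, against 391, 312, 939, 343 and 317 in group 2a. Group 2a replicate 3 lay within the range of group 2b. In group 3 CXCL12 had 1036, 1145, 1102, 1905 and 599, against 262, 828, 499, 459.6 and 694 in group 1, with overlap at 1 group 3 library. CXCL12 was higher in group 2b by a log2 fold change of 1.28 ± 0.36 (SE, adjusted p = 0.00835) and in group 3 by 1.08 ± 0.38 (SE, adjusted p = 0.0287). All 5 genes of the lymphoid axis were called higher in both comparisons, beside 32.2% of all probes in group 2b against group 2a and 29.4% in group 3 against group 1. The calls of CCL19 and CCL21 in group 2b and of CXCL12 in group 3 were made under none of the 4 other scalings, and that of CCL21 in group 2b was lost when any 1 of 11 libraries was left out.

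CCL3, CCL4 and CCL5 are made by activated T cells, natural killer cells and macrophages, and CCL3 and CCL5 bind CCR1. CCL3 had 1013 to 2098 (median 1593) in group 2b, against 399.6, 286, 147, 284 and 933 in group 2a. Group 3 had 1539, 1731, 1100.0, 1816 and 2494, against 63.5, 597, 1026, 407 and 301 in group 1. CCL3 did not overlap in either comparison and was higher in group 2b by a log2 fold change of 2.21 ± 0.52 (SE, adjusted p = 0.00238) and in group 3 by 2.28 ± 0.55 (SE, adjusted p = 0.00264). CCL4 had 654 to 2038 (median 1572) in group 2b, against 304, 189.9, 203, 256 and 445 in group 2a. Libraries of group 3 had 1446, 1643, 1595, 1613 and 2364, against 80.4, 285, 751, 377 and 140.2 in group 1. CCL4 did not overlap either, and was higher in group 2b by a log2 fold change of 2.40 ± 0.42 (SE, adjusted p = 0.000206) and in group 3 by 2.78 ± 0.44 (SE, adjusted p = 0.000102).

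CCL5 had 11824 to 50487 (median 29580.5) in group 2b, against 4465, 5089, 3727, 4824 and 21565 in group 2a. The values in group 3 were 89603, 39691, 26192, 39599 and 53867, against 469.7, 6961, 24879, 28383 and 4068 in group 1. Group 2a replicate 5 lay within the range of group 2b and group 1 replicate 4 within that of group 3, whereas group 1 replicate 1 was the lowest of all 21 libraries. CCL5 was higher in group 2b by a log2 fold change of 2.16 ± 0.78 (SE, adjusted p = 0.0338) and in group 3 by 2.87 ± 0.81 (SE, adjusted p = 0.00811), the largest fold change there. Without group 1 replicate 1, the log2 fold changes in group 3 against group 1 were 1.94 for CCL5 and 1.68 for CCL3, and both calls remained (adjusted p = 0.0174 and 0.00451).

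CCR1, found on monocytes and macrophages, had 1231 to 2325 (median 1775) in group 2b, against 1293, 854, 867, 1453 and 1071 in group 2a. In group 3 it had 1846, 1552, 1029, 1138 and 1770.4, against 822, 1152, 782, 353 and 1510.2 in group 1. The ranges overlapped in both comparisons. CCR1 was higher in group 3 by a log2 fold change of 0.78 ± 0.30 (SE, adjusted p = 0.0459), and had one of 0.62 ± 0.29 (SE, adjusted p = 0.0996) in group 2b, which was not called.

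CCR2 is the receptor of inflammatory monocytes and of some memory T cells, and CCL2, CCL7, CCL8 and CCL13 are its monocyte chemoattractant ligands. CCR2 had 332 to 471 (median 365) in group 2b, against 175, 69.3, 97.5, 81.5 and 149 in group 2a, with no overlap. Levels in group 3 were 404, 306, 299, 412 and 191, against 31.7, 62.8, 213, 216 and 212 in group 1, where 3 group 1 libraries lay together above the lowest group 3 library. CCR2 was higher in group 2b by a log2 fold change of 1.79 ± 0.41 (SE, adjusted p = 0.0019) and in group 3 by 1.43 ± 0.43 (SE, adjusted p = 0.0122). CCL2 had 1104 to 1919 (median 1378) in group 2b, against 639, 268, 1797, 412 and 726 in group 2a, where replicate 3 was as high as the lymphocyte-rich libraries. Group 3 had 846, 1254, 1701, 1679 and 1082, against 428, 1036, 745, 768 and 506 in group 1, with overlap. CCL2 was higher in group 2b by a log2 fold change of 1.19 ± 0.35 (SE, adjusted p = 0.0114) and in group 3 by 0.93 ± 0.37 (SE, adjusted p = 0.0496), the adjusted p closest to the threshold.

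CCL7 had 81.7 to 136 (median 110.1) in group 2b, against 72.4, 52.5, 86.5, 48.7 and 109 in group 2a. Libraries of group 3 had 217, 177, 61.5, 106 and 113, against 39.1, 72.9, 62.4, 26.4 and 43.6 in group 1. The ranges overlapped in both comparisons, and CCL7 was called in group 3 only, with a log2 fold change of 1.40 ± 0.32 (SE, adjusted p = 0.00189) there and 0.62 ± 0.31 (SE, adjusted p = 0.122) in group 2b. CCL8 had 252 to 1518 (median 536) in group 2b, against 409, 93.8, 419, 118 and 364 in group 2a. The values in group 3 were 454, 666, 698, 377 and 463, against 80.4, 544, 398, 117 and 112 in group 1. Its ranges overlapped too, and CCL8 was called in group 3 only, with a log2 fold change of 1.46 ± 0.55 (SE, adjusted p = 0.0422) there and 1.27 ± 0.53 (SE, adjusted p = 0.0654) in group 2b. Whether the effects on CCR1, CCL7 and CCL8 differ between the comparisons was not shown by these calls and was not tested.

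CXCR6 is carried by tissue-resident and effector T cells, and CXCL16 is its membrane-bound ligand on dendritic cells and macrophages. CXCR6 had 469 to 1262 (median 679) in group 2b, against 132, 135, 157, 186 and 435 in group 2a. In group 3 it had 1079, 1237, 453, 988 and 596, against 41.3, 109, 485, 344 and 79.6 in group 1. The stage 2 groups did not overlap, and 1 group 1 library was above the lowest group 3 library. CXCR6 was higher in group 2b by a log2 fold change of 1.96 ± 0.51 (SE, adjusted p = 0.00469) and in group 3 by 2.50 ± 0.53 (SE, adjusted p = 0.00106). CXCL16 had 1797 to 2482 (median 2043) in group 2b, against 1208, 684, 2086, 1693 and 1356 in group 2a. Levels in group 3 were 2504, 2391, 2126, 2689 and 2319, against 909.8, 1143, 1182, 1520.5 and 788 in group 1. Group 2a replicate 3 lay within the range of group 2b, whereas groups 3 and 1 did not overlap. CXCL16 was higher in group 2b by a log2 fold change of 0.65 ± 0.22 (SE, adjusted p = 0.0231) and in group 3 by 1.15 ± 0.23 (SE, adjusted p = 0.000607).

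XCR1 marks dendritic cells that cross-present antigen to CD8+ T cells. XCR1 had 99.0 to 378 (median 169) in group 2b, against 58.2, 31.3, 23.1, 34.0 and 77.3 in group 2a. Group 3 had 248, 89.6, 138, 289.8 and 63.7, against 18.0, 47.5, 60.6, 98.8 and 39.8 in group 1. The stage 2 groups did not overlap, and 1 group 1 library was above the 2 lowest of group 3. XCR1 was higher in group 2b by a log2 fold change of 2.13 ± 0.45 (SE, adjusted p = 0.00099) and in group 3 by 1.60 ± 0.47 (SE, adjusted p = 0.0108). CCR4, the receptor of T helper 2, regulatory and skin-homing T cells, had 60.7 to 124 (median 80.3) in group 2b, against 18.1, 20.1, 32.2, 43.0 and 29.1 in group 2a. Libraries of group 3 had 48.4, 69.7, 64.8, 92.9 and 48.6, against 20.1, 28.8, 18.4, 28.0 and 49.3 in group 1. The stage 2 groups did not overlap, and group 1 replicate 5 was just above the 2 lowest of group 3. CCR4 was higher in group 2b by a log2 fold change of 1.61 ± 0.28 (SE, adjusted p = 0.000175) and in group 3 by 1.18 ± 0.29 (SE, adjusted p = 0.00324).

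**Figure D3:**
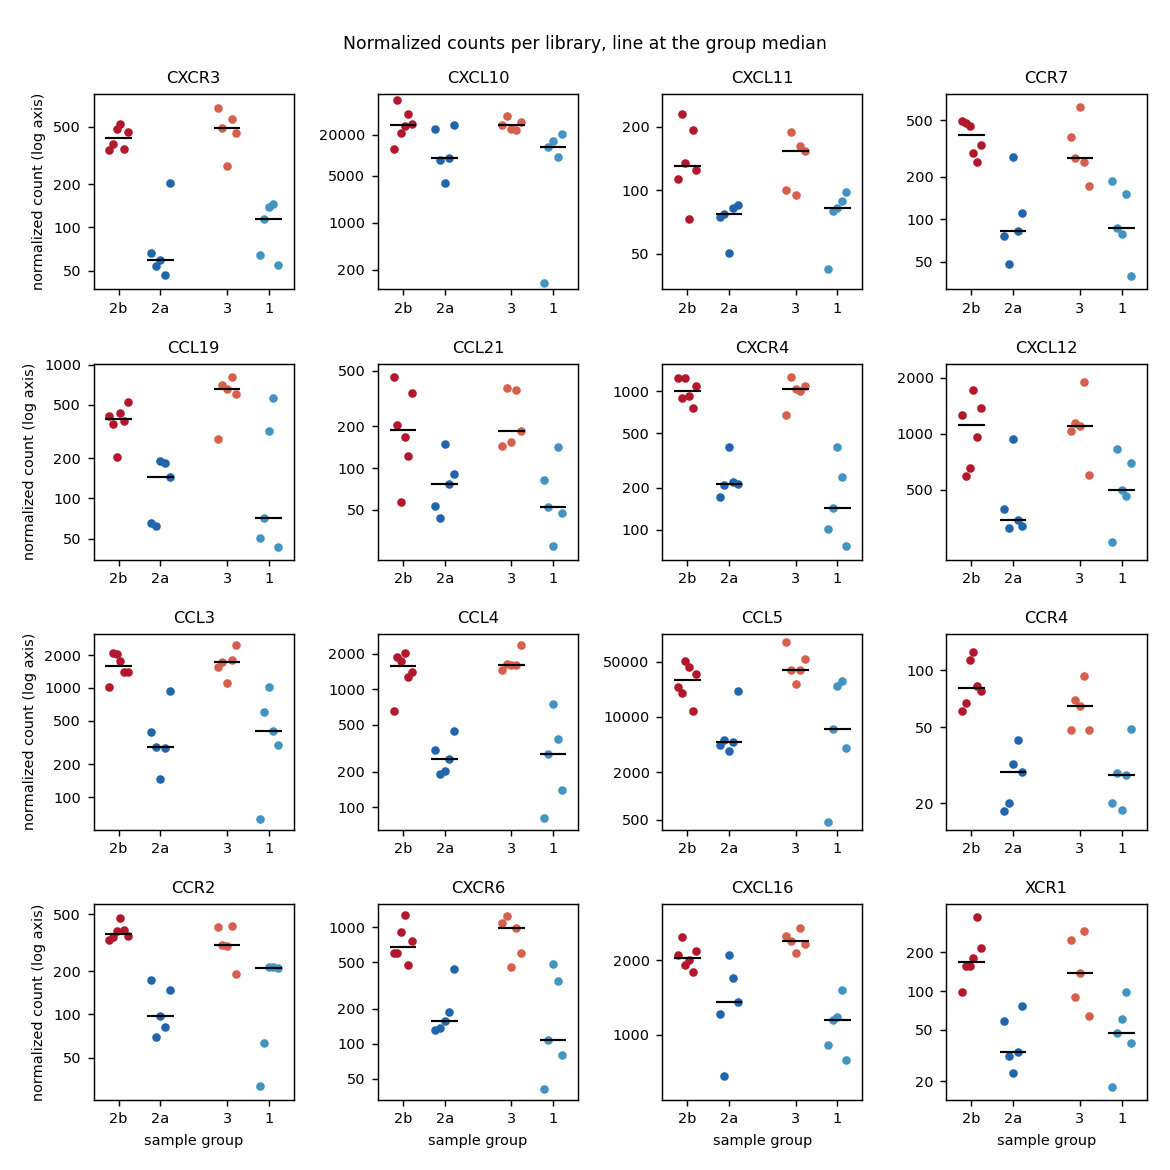
Each point is the normalized count of 1 library on a log axis, the line is the group median, and group 2b stands beside group 2a and group 3 beside group 1 for 16 genes. CXCR3, CXCR4, CCL3 and CCL4 do not overlap in either pair, and CXCL10 has 1 group 1 library at 128.

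The ligands of CCR4 did not pass the test where the receptor did. CCL17 had a median of 44.3 in group 2b and 31.8 in group 2a (log2 fold change -0.80 ± 0.73, adjusted p = 0.428), and group 2a replicate 3 had 885 where the others had 26.8 to 58.9. By edgeR on the recovered counts CCL17 was called lower in group 2b (log2 fold change -2.15, adjusted p = 0.0402). CCL22 had a mean of 25.1 ± 8.47 in group 2b and 24.2 ± 14.5 in group 2a (SD, log2 fold change 0.14 ± 0.31, adjusted p = 0.775). Between group 3 and group 1, CCL17 had a median of 39.0 in group 3 and 30.5 in group 1 (log2 fold change 0.42 ± 0.76, adjusted p = 0.695), and CCL22 a mean of 30.8 ± 10.8 in group 3 and 22.01 ± 4.12 in group 1 (SD, log2 fold change 0.42 ± 0.33, adjusted p = 0.321). CCR4 was the only one of the 8 measured genes of the type 2, regulatory T cell and skin axis that was called, in both comparisons. CCL1, CCL20, CCL27, CCL28 and CCR10 of that axis had log2 fold changes between -0.71 (CCR10) and 0.17 (CCL20) in group 2b against group 2a, and between -0.60 (CCL1) and 0.22 (CCR10) in group 3 against group 1. CCL27, made by keratinocytes, and its receptor CCR10 had medians of 18.1 and 14.4 over the 21 libraries.

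None of the 3 genes of the neutrophil axis was called. CXCL8, which attracts neutrophils, had 95.7 to 660.5 (median 382) in group 2b, against 999.6, 179, 246, 180.1 and 316 in group 2a. The values in group 3 were 324, 834, 236, 632 and 832, against 141, 1937, 55.1, 158 and 123 in group 1. Its log2 fold change was 0.11 ± 0.71 (SE, adjusted p = 0.92) in group 2b and 1.36 ± 0.74 (SE, adjusted p = 0.156) in group 3. Group 1 replicate 2 held the highest CXCL8 of all libraries, and without it CXCL8 was called higher in group 3 (log2 fold change 2.18 ± 0.57, adjusted p = 0.00507). Its receptor CXCR1 had a mean of 36.5 ± 14.9 in group 2b and 67.8 ± 26.5 in group 2a (SD, log2 fold change -0.88 ± 0.35, adjusted p = 0.0546), and CXCR2 one of 32.8 ± 13.6 in group 2b and 39.8 ± 21.6 in group 2a (SD, log2 fold change -0.22 ± 0.38, adjusted p = 0.698). By DESeq2 on the recovered counts CXCR1 was called lower in group 2b (log2 fold change -0.89, adjusted p = 0.0400).

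CCL24, an eotaxin that attracts eosinophils through CCR3, was the 1 gene of the set called lower. It had 42.2, 24.3, 24.8, 21.4 and 13.0 in group 3, against 110.0, 102, 18.4, 31.3 and 129 in group 1. Group 1 replicates 1, 2 and 5 were above every group 3 library, and replicates 3 and 4 lay within the range of group 3. Its log2 fold change was -1.34 ± 0.51 (SE, adjusted p = 0.0438) in group 3, and 0.16 ± 0.49 (SE, adjusted p = 0.833) in group 2b, where it had 19.3 to 66.3 (median 34.9), against 18.1, 29.1, 22.1, 84.9 and 26.4 in group 2a. CCR3 had a mean of 20.04 ± 6.43 in group 3 and 56.4 ± 71.8 in group 1 (SD, log2 fold change -0.74 ± 0.55, adjusted p = 0.298), with 181 in group 1 replicate 2. By DESeq2 on the recovered counts CCR3 was called lower in group 3 (log2 fold change -1.49, adjusted p = 0.0302). CCL26 had a median of 11.2 over the 21 libraries.

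The other uncalled genes ranged from abundant to sparse. CXCL14, which is made by epithelia of normal skin, had a mean of 1697 ± 932 in group 2b and 1671 ± 1396 in group 2a (SD, log2 fold change 0.20 ± 0.57, adjusted p = 0.827). Its mean was 2909.8 ± 1722 in group 3, against 4359.5 ± 3039 in group 1 (SD, log2 fold change -0.55 ± 0.59, adjusted p = 0.488). CCL23, a ligand of CCR1 in human, had 1536 to 8331 (median 4457) in group 2b, against 11149.8, 559.8, 3388, 2611 and 4435 in group 2a, a spread within group 2a that was wider than the difference (log2 fold change 0.48 ± 0.67, adjusted p = 0.616). CX3CL1, a membrane-bound ligand of endothelium, had a mean of 73.3 ± 35.4 in group 3 and 38.7 ± 16.8 in group 1 (SD, log2 fold change 0.82 ± 0.35, adjusted p = 0.0702). CCL13 had the smallest ratio of the highest to the lowest library among the 42 genes, 2.23-fold, with 118 in the lowest and 263 in the highest. CCL16, CCL25, CCL26, CCL27 and CCR10 had a median under 20 over the 21 libraries, the level chosen here as low, and 40 of 42 genes reached 20 in at least 5 libraries. CCL25 and CCR9, the ligand and receptor of gut homing, were not called in any comparison by limma with the deposited scaling and all 21 libraries. CCL14 was not called either, with a mean of 79.3 ± 24.1 in group 2b, against 93.3 ± 67.2 in group 2a, and 108 ± 46.6 in group 3, against 177 ± 116 in group 1 (SD).

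The direction of the smaller differences depended on how libraries were scaled. With the reference probe scaling of the deposited values, the median log2 fold change over all probes was 0.23 in group 2b against group 2a. Scaling by DESeq2 size factors, TMM factors, quantiles and the library median moved that median log2 fold change to -0.12, -0.17, -0.18 and -0.48, and that of group 3 against group 1 to -0.04, -0.10, -0.19 and -0.52. With the deposited scaling 17 chemokine genes were higher and 0 lower in group 2b, against 10 and 3 with DESeq2 size factors or TMM factors, 9 and 2 with quantiles and 9 and 4 with the median. In group 3 against group 1, 19 were higher and 1 lower as deposited, 14 and 1 with DESeq2 size factors, 14 and 2 with TMM factors, 13 and 2 with quantiles and 8 and 11 with the median. The median of the 42 genes in group 2b against group 2a was -0.09 with the library median, against -0.48 over all probes, and was 0.21 to 0.27 with the other scalings.

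CCL3, CCL4, CCR2, CCR4, CXCR3, CXCR4, CXCR6 and XCR1 were called higher in group 2b under all of these scalings. CCL19, CCL2, CCL21, CXCL11 and CXCL16 were called under none of the 4 other scalings, and CXCL16 turned to -0.066 with the library median. Between group 3 and group 1, CCL19, CCL3, CCL4, CCL5, CCL7, CXCR3, CXCR4 and CXCR6 were higher and CCL24 lower under all of them, and CCL2, CCL8, CCR1, CXCL11 and CXCL12 were called under none of the 4. CXCR1 and CCR10, not called as deposited, were lower in group 2b under each of the 4 other scalings, with log2 fold changes of CXCR1 of -1.23 to -1.60.

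**Figure D4:**
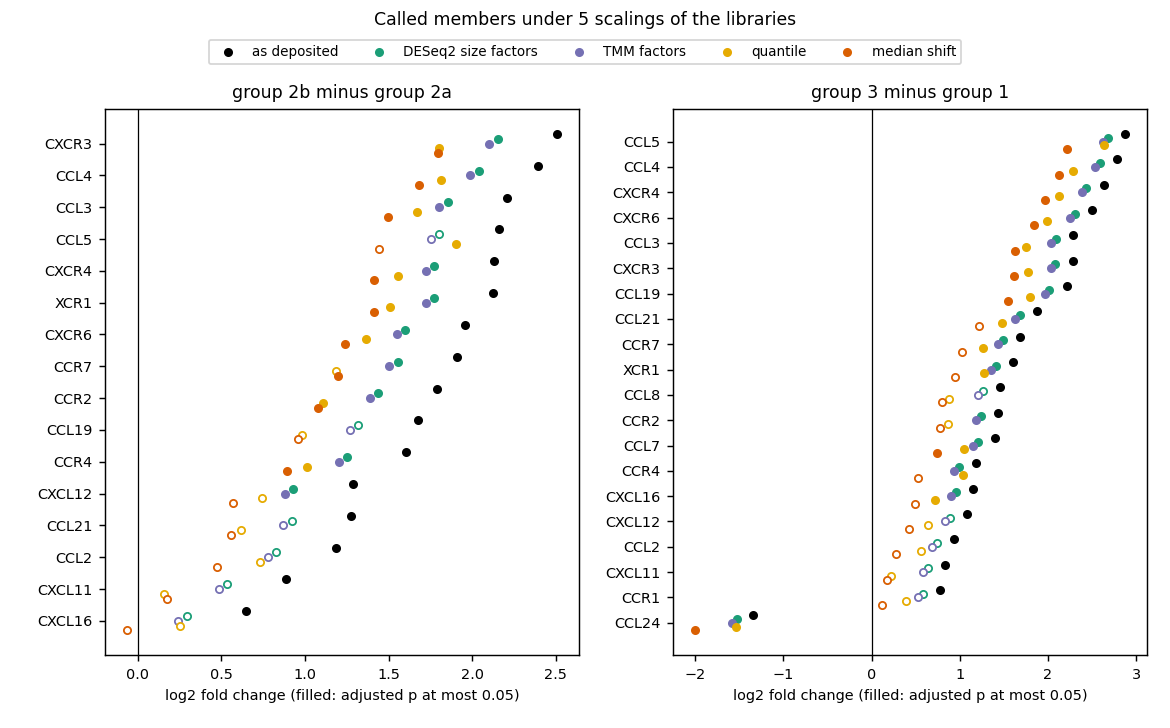
Each row is a gene called with the deposited scaling, and points are its log2 fold change under 5 scalings, filled where the adjusted p was at most 0.05. All points move to the left of the deposited value, and CXCL16 in group 2b crosses 0 with the median shift.

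The calls near the threshold also rested on single libraries. In group 2b against group 2a, the call of CCL21 was lost without any 1 of group 2a replicates 1, 2, 4 and 5, group 2b replicates 1, 2, 4 and 6, group 1 replicates 2 and 5 or group 3 replicate 5 (adjusted p of 0.0502 to 0.122). CCL5 lost its call without any 1 of group 2a replicates 1 to 4 or group 2b replicates 3, 4 and 6 (0.0598 to 0.0727). CCL19 did so without group 2a replicate 1 or 2 (0.0576 and 0.0675), and CXCL16 without group 2a replicate 2 or group 2b replicate 2 (0.0820 and 0.0509). Of the 17 calls, 12 were kept without any single library. Calls were also gained. CCL8 was called without group 1 replicate 2, group 2a replicate 1 or 3 or group 2b replicate 1 (0.0339 to 0.0484), CCL13 without group 2b replicate 1 or group 3 replicate 2 (0.0171 and 0.0492), CCR1 without group 1 replicate 4 (0.0357) and CCR9 without group 1 replicate 1 (0.00659). By DESeq2 on the recovered counts, CCL8, CCL13 and CCR9 were called higher in group 2b (adjusted p of 0.0457, 0.0300 and 0.0443). With only the compared groups in the limma fit, CCR1 and CCR9 were called higher (adjusted p of 0.0332 and 0.0254). CXCR1 was called lower without group 1 replicate 1, group 2a replicate 3, group 2b replicate 1 or 2 or group 3 replicate 1 or 2 (0.0286 to 0.0498), and CCR10 without group 2b replicate 2 or 3 (0.0386 and 0.0409).

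In group 3 against group 1, CCL2 was called without group 1 replicate 2, group 2a replicate 2, 3 or 4 or group 3 replicate 1, and lost its call without any of the other 16 libraries (adjusted p of 0.0528 to 0.127). CCR1 lost its call without group 1 replicate 1, 3 or 4, group 2a replicate 1 or 5, group 2b replicate 4, 5 or 6 or group 3 replicate 1, 2 or 5 (0.0507 to 0.150). CCL24 did so without group 1 replicate 1, 2 or 5, group 2a replicate 2 or group 3 replicate 2, 3, 4 or 5 (0.0507 to 0.123), and CCL8 without group 1 replicate 1, 4 or 5 or group 3 replicate 1, 2, 3 or 5 (0.0597 to 0.120). CXCL11 needed group 1 replicate 1 and group 3 replicates 2, 4 and 5 (0.0616 to 0.0957), and CXCL12 needed group 1 replicates 1 and 4 and group 3 replicate 4 (0.0546 to 0.0894). The other 14 calls were kept. CX3CL1 was called higher without group 1 replicate 3 or group 3 replicate 1 or 3 (0.0174 to 0.0333) and by edgeR and DESeq2 (0.0420 and 0.0283). With DV200 as a covariate, CCL3, CCL4, CCL7, CCR1, CCR4, CXCL11, CXCL16, CXCR3, CXCR4 and CXCR6 were still called, and the other 10 were not. The DV200 of group 3 replicate 5 differs between the labels and the study's supplementary material, and that of the labels was used.

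The stage comparisons set group 2a against group 1 and group 3 against group 2b. No chemokine gene was called in group 2a against group 1 (0 of 42, all probes 0.125%), where no gene had groups that did not overlap (all probes 0.625% higher and 2.25% lower) and 3 had an unadjusted p under 0.05 (all probes 14.2%): CXCL14 (log2 fold change -1.44 ± 0.59, adjusted p = 0.285), CCL25 (log2 fold change -0.80 ± 0.35, adjusted p = 0.301) and CCL14 (log2 fold change -0.94 ± 0.44, adjusted p = 0.337). CXCL14 had 1664, 507, 1164, 966 and 4055 in group 2a, against 4699, 9158, 4421, 1379 and 2141 in group 1, with overlapping ranges. None was called in group 3 against group 2b either (0 of 42, all probes 0.125%), and edgeR and DESeq2 on the recovered counts called none in either stage comparison. CCR10 was the 1 gene with an unadjusted p under 0.05 there (all probes 6.25%) and the 1 gene whose groups did not overlap (all probes 0.375% higher), with 14.9, 29.9, 16.2, 14.9 and 16.2 in group 3, against 2.89 to 14.4 (median 8.29) in group 2b (log2 fold change 1.05 ± 0.31, adjusted p = 0.16), and 1 of these counts reached 20. The difference between both stage differences (group 3 minus group 2b, and group 2a minus group 1) was called for no chemokine gene (all probes 0.125%). For this difference 4 genes had an unadjusted p under 0.05 (all probes 14.9%), CXCL14, CCL14, CCL25 and CCR10. The 95% confidence limits lay, as a median over the 42 genes, 0.83 from the log2 fold change in group 2a against group 1 and 0.80 from it in group 3 against group 2b.

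Many of these genes lie in clusters of neighbors in the dog genome, by their order in the RefSeq annotation of the assembly UU_Cfam_GSD_1.0. In the cluster of CCL4, CCL3, CCL23, CCL14, CCL16 and CCL5, the same 3 genes (CCL3, CCL4 and CCL5) were higher in both comparisons, and CCL23, CCL14 and CCL16 were called in neither. Of the neighbors CCL1, CCL13, CCL8, CCL7 and CCL2, 1 was higher in group 2b and 3 in group 3. CCL19 and CCL21 were higher in both comparisons and their neighbor CCL27 in neither, and CCL17, CX3CL1 and CCL22 were not called.

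Both members were measured for 25 ligand and receptor pairs, and their levels were correlated across libraries within lymphocyte-rich libraries (groups 2b and 3, n = 11) and within tumor cell-rich libraries (groups 2a and 1, n = 10), which gave 50 correlations. None passed an adjusted p of 0.05 by Pearson's r or Spearman's rho, in permutation tests of 100000 resamples (two-sided, Benjamini-Hochberg over all 50), and 4 had an unadjusted p under 0.05 by Pearson's r. The highest was CCL21 with CCR7 in tumor cell-rich libraries, with r = 0.77 (permutation p = 0.00851, adjusted 0.425) and rho = 0.83 (p = 0.00457, adjusted 0.139). It was r = 0.81 without the 2 libraries farthest from the median of CCL21. In lymphocyte-rich libraries the same pair had r = -0.15 (permutation p = 0.662, adjusted 0.983) and rho = -0.06 (p = 0.860, adjusted 0.919).

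CCL25 with CCR9 had r = 0.66 in tumor cell-rich libraries (permutation p = 0.0417, adjusted 0.530) and rho = 0.82 (p = 0.00556, adjusted 0.139). Without the 2 farthest libraries r was 0.67 for this pair. CCL28 with CCR10 had r = 0.63 in lymphocyte-rich libraries (permutation p = 0.0389, adjusted 0.530) and rho = 0.35 (p = 0.286, adjusted 0.894), and r = -0.06 without the 2 farthest libraries, so that it rested on those. The sign of r was positive in 15 of 25 pairs in lymphocyte-rich libraries and in 24 of 25 in tumor cell-rich ones, and pairs share genes and libraries. With each library scaled by its median, 14 were positive in lymphocyte-rich and 15 in tumor cell-rich libraries. After the mean of each group had been taken out, 20 were positive in lymphocyte-rich and 22 in tumor cell-rich libraries.

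**Figure D5:**
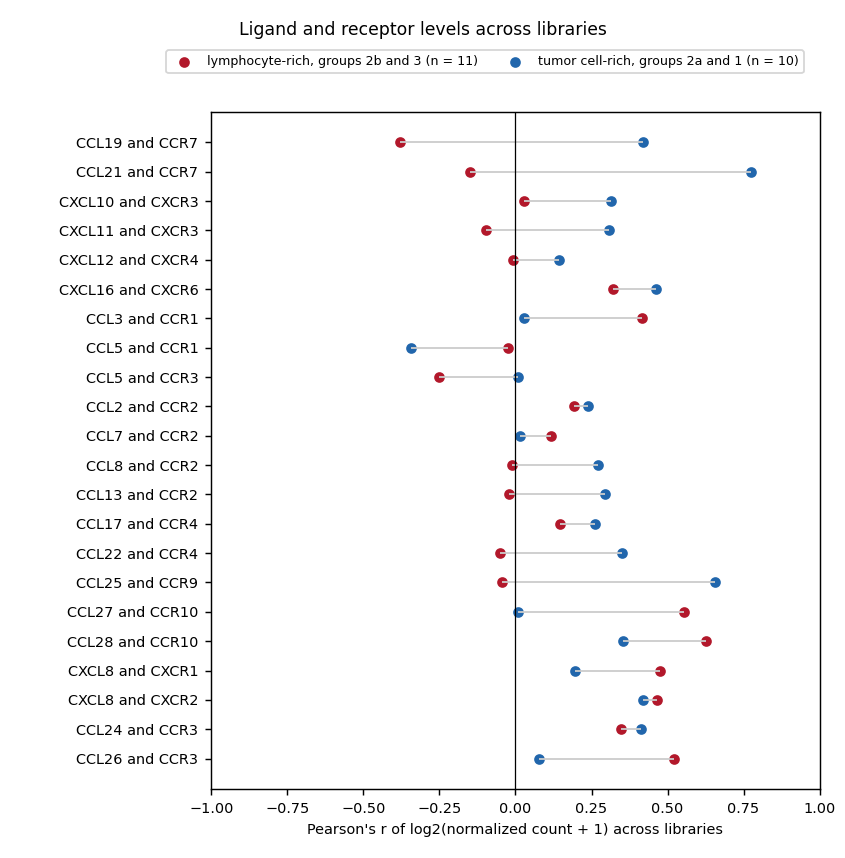
Points are Pearson's r of ligand and receptor levels for 22 pairs, in red across 11 lymphocyte-rich and in blue across 10 tumor cell-rich libraries. Most blue points lie to the right of 0 and CCL21 with CCR7 is the highest at 0.77, but no r passed an adjusted p of 0.05.

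Other genes of chemokine signaling, adhesion and control moved in both directions. Of 24 measured, 15 were higher and 4 lower in group 2b against group 2a, and 15 were higher and 4 lower in group 3 against group 1, with median log2 fold changes of 0.86 and 0.68. Of all probes, 32.2% were higher and 6.5% lower in group 2b and 29.4% higher and 10.5% lower in group 3, with medians of 0.23 and 0.14. The largest increase in group 2b was that of CXCL13, the B cell attracting ligand of CXCR5 (log2 fold change 4.37 ± 0.95, adjusted p = 0.00121). In group 3 it was that of ITGAL, a chain of the integrin LFA-1 that chemokines activate (log2 fold change 3.04 ± 0.40, adjusted p = 2.50e-05). CCR6, the receptor of CCL20, was lower in group 2b (log2 fold change -1.82 ± 0.34, adjusted p = 0.000331) and in group 3 (log2 fold change -1.74 ± 0.36, adjusted p = 0.000808). CX3CR1, the receptor of CX3CL1, was also lower in group 2b (log2 fold change -1.51 ± 0.43, adjusted p = 0.00921) and in group 3 (log2 fold change -1.49 ± 0.45, adjusted p = 0.0127). Their ligands CCL20 and CX3CL1 were called in neither comparison.

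Of 18 cytokines and factors known to induce chemokines, 7 were higher and 1 lower in group 2b against group 2a, and 7 higher and 2 lower in group 3 against group 1, beside the shares of all probes given for the signaling genes. Their median log2 fold changes were 0.32 in group 2b and -0.12 in group 3, against 0.23 and 0.14 over all probes. The largest increases were those of LTA and LTB, the lymphotoxins that induce CCL19 and CCL21 in lymphoid stroma, in group 2b (log2 fold change 3.01 ± 0.63, adjusted p = 0.00083 for LTA and log2 fold change 1.95 ± 0.32, adjusted p = 0.000131 for LTB). In group 3 they were those of IRF1, a factor of the interferon response (log2 fold change 1.70 ± 0.28, adjusted p = 0.00012), and LTA (log2 fold change 1.68 ± 0.66, adjusted p = 0.0476). IFNGR1, a chain of the receptor of interferon gamma, was lower in group 2b (log2 fold change -0.89 ± 0.19, adjusted p = 0.00121) and in group 3 (log2 fold change -0.98 ± 0.20, adjusted p = 0.000844), and IL4 was lower in group 3 (log2 fold change -0.75 ± 0.26, adjusted p = 0.0264). The T cell and B cell markers of both comparisons stand with the depth and DV200 of the libraries. Of 7 macrophage markers, 3 were higher in group 2b, and 2 were higher and 1 lower in group 3, whereas none of 4 neutrophil markers was called in either comparison. Among 4 fibroblast markers, 1 was higher in group 2b and 2 in group 3. Of 3 endothelial markers none was called in group 2b and 1 was higher in group 3. Of 2 keratinocyte markers 1 was lower in group 2b and none was called in group 3, and of 5 mast cell markers none was called in group 2b and 1 was lower in group 3. These marker counts stand beside 32.2% of all probes higher and 6.5% lower in group 2b, and 29.4% higher and 10.5% lower in group 3. The part that cell content or the median count of a library has in the chemokine values was not tested.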

How the data were processed

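The nCounter Canine IO Panel counts barcoded probes bound to RNA without amplification, and was run on RNA of FFPE tissue. The authors imported the counts into nSolver and normalized them to reference probes at default settings, and per the labels R 3.3.2 was used for their own tests. The deposited signal values are these normalized counts, with 18 values raised to 1. No aligner or genome was involved. A grid search gave each of the 21 libraries a step of which its values were whole multiples (100% within 0.01 counts, steps of 0.909 to 1.89). A standard check of such steps was met by 9 of 21 columns and not by the other 12, so that the alternative count tests rest on the grid search for those 12.

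Differences were tested on log2(normalized count + 1) with limma 3.58.1 in R 4.3.3 (group means of all 21 libraries, eBayes with a mean-variance trend, two-sided, Benjamini-Hochberg over 800 probes), since the vendor's plug-in named in the methods was not run here. Reference probes stayed in the table. Recovered counts were tested with edgeR 4.0.16 (quasi-likelihood) and DESeq2 1.42.0. Correlations and their permutation tests were computed with numpy 2.4.6, with ranks from scipy 1.17.1. The alternatives were other scalings, a pseudocount of 10, a filter at 20 normalized counts in 5 libraries, no trend, only the compared groups, DV200, single or pooled dogs of group 2b, a replicate block and each library left out. Scripts were tested on simulated data. Genes given with library values, as a range and median in group 2b, were those called in at least 1 comparison between groups. CXCL10 and CXCL8 were added after their values were seen, as were CCL23, CXCL14 and CCR10 for some of the groups. 1 gene of the set is counted in the totals but not reported here. The genes and lists were chosen with earlier results of these data known. Libraries of a group came from different dogs, and the number of libraries limits the precision.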

Additional observations from a re-analysis of the deposited data

Results flagged for a closer look

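In 13 of 168 sets of 1 gene in 1 group, the highest or lowest library lay so far from the others that its gap to the nearest exceeded the critical value of Dixon's test, which chance does in about 1 of 20 sets. In group 1 replicate 1, CCR9 had 4.23 normalized counts, against 21.4 to 33.0 in the other libraries of that group, CXCL10 had 128 normalized counts, against 9287 to 20499.8 in the other libraries of that group and CXCL11 had 42.3 normalized counts, against 79.7 to 98.5 in the other libraries of that group. In group 2a replicate 3, CCL17 had 885 normalized counts, against 26.8 to 58.9 in the other libraries of that group, CXCL11 had 50.3 normalized counts, against 75.0 to 85.5 in the other libraries of that group and CXCL12 had 939 normalized counts, against 312 to 391 in the other libraries of that group. In group 2a replicate 5, CCL5 had 21565 normalized counts, against 3727 to 5089 in the other libraries of that group, CXCR3 had 205 normalized counts, against 46.4 to 66.0 in the other libraries of that group and CXCR6 had 435 normalized counts, against 132 to 186 in the other libraries of that group. In group 3 replicate 1, CCL19 had 280.3 normalized counts, against 606 to 814 in the other libraries of that group. In group 3 replicate 2, CCR10 had 29.9 normalized counts, against 14.9 to 16.2 in the other libraries of that group. In group 3 replicate 5, CCL4 had 2364 normalized counts, against 1446 to 1643 in the other libraries of that group and CXCR2 had 21.6 normalized counts, against 35.3 to 39.8 in the other libraries of that group.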

How the results depend on the processing

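The number of chemokine genes called in group 2b against group 2a (17) was 11 with quantile normalization and 6 when only the 2 single-dog libraries stood for group 2b, and 12 (without group 2a replicate 2) to 20 (without group 1 replicate 1) when 1 library was left out. In group 3 against group 1 the number (20) was 10 with DV200 as a covariate, and 14 (without group 1 replicate 1) to 21 (without group 1 replicate 2). The recovered counts gave 17 calls with edgeR and 21 with DESeq2 in group 2b against group 2a, and 18 and 20 in group 3 against group 1. Both stage comparisons, the difference between them and the ligand and receptor pairs stayed at 0 calls under each alternative run, 0 to 0 with 1 library left out. CXCL16 in group 2b against group 2a turned to -0.066 when libraries were shifted to an equal median. Of 1295 values of called genes under the alternatives, 1112 kept direction and call, 182 kept direction only and 1 turned.

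Replicate numbers are shared between groups, but same-numbered libraries did not deviate together (correlations of -0.36 to 0.20), so that they share only a number. With the replicate block, 14 genes were called in group 2b against group 2a and 17 in group 3 against group 1.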

Other observations

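Tumor cell-rich libraries differed among themselves in T cell markers. The 3 of 10 with the highest summed T cell markers, group 1 replicates 3 and 4 and group 2a replicate 5, had 7999, 5548 and 5943, and these 3 were also the 3 highest of the 10 for CCL4, CCL5, CXCR3, CXCR6 and XCR1, which is 11.9% of the 42 genes, against 4.27% of the 749 other probes. Group 1 replicate 1 had the lowest sum (277) and was the lowest of the 10 for 14 of the 42 genes (33.3%), against 140 of the 749 other probes (18.7%). It was also the highest of all 21 libraries for CXCR1. Libraries were ordered by measured values here, so that these are descriptions and no test was made.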
